A study of Caenorhabditis elegans with 17 samples.

Results

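The cytosolic ribosome of Caenorhabditis elegans is built from proteins whose genes are named rps (small subunit) and rpl (large subunit). The 77 genes described here are those of the deposited expression table whose public name is rps or rpl followed by a number, and whose level was at least 1 FPKM (mapped fragments per kilobase of transcript and per M fragments of the library) in at least 4 of 17 libraries. They comprised 31 rps and 46 rpl genes among 13084 genes that passed the same level filter. Of 78 genes with such a name, rpl-42 was the 1 that did not pass, with 0.54 ± 0.34 FPKM (SD, n = 5) in control animals.

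Ribosomes translate messenger RNA into protein, and the large and small subunits each assemble from ribosomal RNA and ribosomal proteins in the nucleolus and cytoplasm. Ribosomal protein genes are transcribed strongly and together in growing cells, because every new ribosome needs its proteins in fixed proportion. In an adult hermaphrodite much of this demand lies in the germline, which makes oocytes loaded with ribosomes, and in the intestine, which makes yolk.

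RNA came from whole day 1 adults, 96 h old, kept at 20 °C. Every group carried the transgene rmIs133 [unc-54p::Q40::YFP], in which the promoter of a myosin heavy chain gene drives a fluorescent polyglutamine protein in body wall muscle, so no group lacks that transgene. Animals ate bacteria producing double-stranded RNA, which depletes the matching transcript (RNAi). The empty vector L4440 had 5 libraries, and each of ash-2 RNAi, hsf-1 RNAi and ash-2 + hsf-1 RNAi had 4. The ash-2 gene encodes a subunit of histone H3 lysine methyltransferase complexes, and hsf-1 the transcription factor of the heat shock response. For ash-2 and for ash-2 + hsf-1 RNAi the parents were also raised on ash-2 RNAi, so treatment of the animals and treatment of their parents cannot be told apart. The labels call the libraries biological replicates, and p-values measure the spread between libraries of 1 experiment.

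The targeted genes were lower than in L4440 in every library labelled with the matching clone. The ash-2 level was 14.1 to 19.1 FPKM in L4440, 2.04 to 8.68 FPKM under ash-2 RNAi and 3.92 to 11.6 FPKM under ash-2 + hsf-1 RNAi. It was 16.8, 16.9 and 17.4 FPKM in hsf-1 RNAi libraries 3, 1 and 2, but 5.57 FPKM in hsf-1 RNAi library 4, although that label names no ash-2 RNAi. The hsf-1 level was 26.4 to 33.8 FPKM in L4440, 7.33 to 15.1 FPKM under hsf-1 RNAi and 6.05 to 11.7 FPKM under ash-2 + hsf-1 RNAi. Under ash-2 RNAi, whose label names no hsf-1 RNAi, it was 16.3 and 22.1 FPKM in libraries 1 and 3, below every L4440 library, and 41.5 and 40.2 FPKM in libraries 2 and 4, above every L4440 library. Between 9401 and 13066 genes reached 1 FPKM per library. The fewest were found in ash-2 libraries 1 (9401) and 3 (9817), ash-2 + hsf-1 library 3 (10591) and hsf-1 library 4 (10745), called the 4 libraries with few detected genes below. Depth estimated from the steps between low FPKM values was 16.3 to 19.4 M fragments.

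In L4440 animals the ribosomal protein genes were among the most abundant messenger RNAs of the worm. They made up 34 of the 50 and 59 of the 100 highest genes, and 23.4 ± 1.8% (SD, n = 5) of the summed FPKM. Their mean levels ran from 11.7 to 4852 FPKM with a median of 2385 FPKM, and 63 of 77 were at or above 1000 FPKM. Small and large subunit genes had similar medians, 2462 and 2276 FPKM. FPKM is a level per length of transcript, so these levels can be compared between genes, though very short transcripts are measured less well. The highest was rpl-2, which encodes a protein near the catalytic centre in other organisms, at 4565, 4396, 5705, 4857 and 4739 FPKM in L4440 libraries 1 to 5. It was followed by rpl-6 at 4370 ± 535 FPKM, rpl-24.1 at 4194 ± 562 FPKM, rps-11 at 4105 ± 551 FPKM and rps-8 at 4089 ± 267 FPKM. These neighbours in the order differ by less than the spread between libraries.

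**Figure D1:**
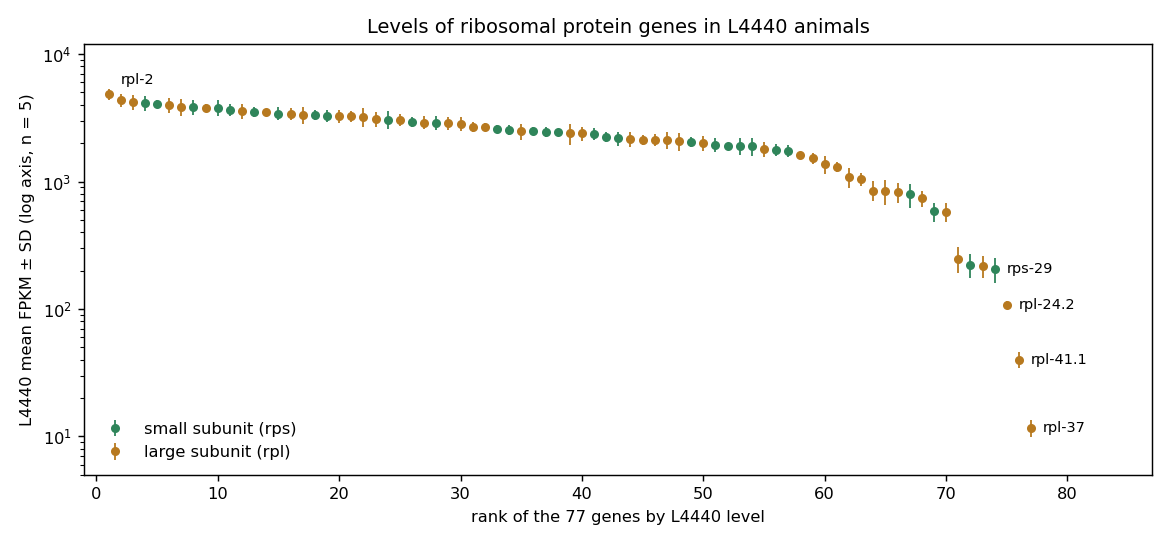
Mean L4440 level of each of the 77 genes (FPKM, log axis, bars are the SD over 5 libraries), ranked from highest to lowest and coloured by subunit. Most genes form a plateau above 1000 FPKM, and a short tail ends with rps-29, rpl-24.2, rpl-41.1 and rpl-37.

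A short tail of members lay far below the plateau. Among these genes, which were chosen by name, the lowest was rpl-37, at 9.83 to 14.4 FPKM in L4440. A gene for the same protein under another name would not be counted here. Next was rpl-41.1 at 40.1 ± 5.7 FPKM, whose neighbour on chromosome I and partner by name, rpl-41.2, stood at 736 ± 107 FPKM. The gene rpl-24.2 had 108 ± 8.1 FPKM against 4194 FPKM for rpl-24.1. The deposited annotation describes rpl-24.2 as a probable ribosome biogenesis protein, that is, an assembly factor related to a ribosomal protein and not a building block of the finished subunit. The other low members have short transcripts, but members of like length differed widely. Both rpl-37 and rpl-43 have 276 annotated bases, at 11.7 and 839.8 FPKM. Each of these models is 1 exon with 273 coding bases and no untranslated region, so the full transcript length is not known from it. The transcript of rpl-41.1 has 331 bases, more than the 280 bases of rpl-41.2. The 8 members with transcripts under 300 bases had a median of 234 FPKM (range 11.7 to 839.8), against 2491 FPKM for the 69 longer ones. Levels of such short transcripts depend on fragment size selection, whose part in these values was not tested.

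The members also shared a compact gene structure that played no role in their choice. In the Ensembl annotation of WBcel235 their transcripts had a median length of 507 bases (236 to 1334), against 1288 bases for all tested genes. They had a median of 3 exons, against 6 for tested coding genes, and 39 of 77 had exactly 3. Annotated untranslated regions were short, with medians of 8 bases at the 5′ end and 54 bases at the 3′ end, against 17 and 130 bases. By chromosome, 23 members lie on I, 9 on II, 18 on III, 17 on IV, 8 on V and 2 on X. The members on X are rpl-11.2 and rpl-25.1.

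From library to library the 77 genes moved as a block, and the blocks did not follow the RNAi groups closely. Ribosomal protein genes took 22.2, 21.7, 26.3, 23.9 and 22.8% of the summed FPKM in L4440 libraries 1 to 5. The share was 25.8, 18.1, 24.4 and 18.9% in ash-2 libraries 1 to 4, 24.1, 25.3, 27.3 and 31.9% in hsf-1 libraries 1 to 4, and 21.5, 19.3, 26.1 and 36.7% in ash-2 + hsf-1 libraries 1 to 4. All 4 groups overlapped. The ash-2 libraries fell into a pair above the L4440 mean (1 and 3) and a pair below every L4440 library (2 and 4). The ash-2 + hsf-1 libraries were the most spread of the groups, and library 4 of that group was the highest of the study.

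The same picture held gene by gene. The median of the 77 genes, as log2(FPKM + 0.5) minus the L4440 mean, was 0.25, −0.43, 0.13 and −0.41 in ash-2 libraries 1 to 4. In ash-2 libraries 2 and 4 all 77 members lay below the L4440 mean, whereas in libraries 1 and 3 it was 7 and 11 of them. In hsf-1 libraries 1 to 4 the median was 0.10, 0.18, 0.31 and 0.63, and in ash-2 + hsf-1 libraries 1 to 4 it was −0.12, −0.32, 0.26 and 0.88. Small and large subunit genes moved alike, and the median of rps minus that of rpl stayed between −0.06 and 0.04 in all 17 libraries.

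**Figure D2:**
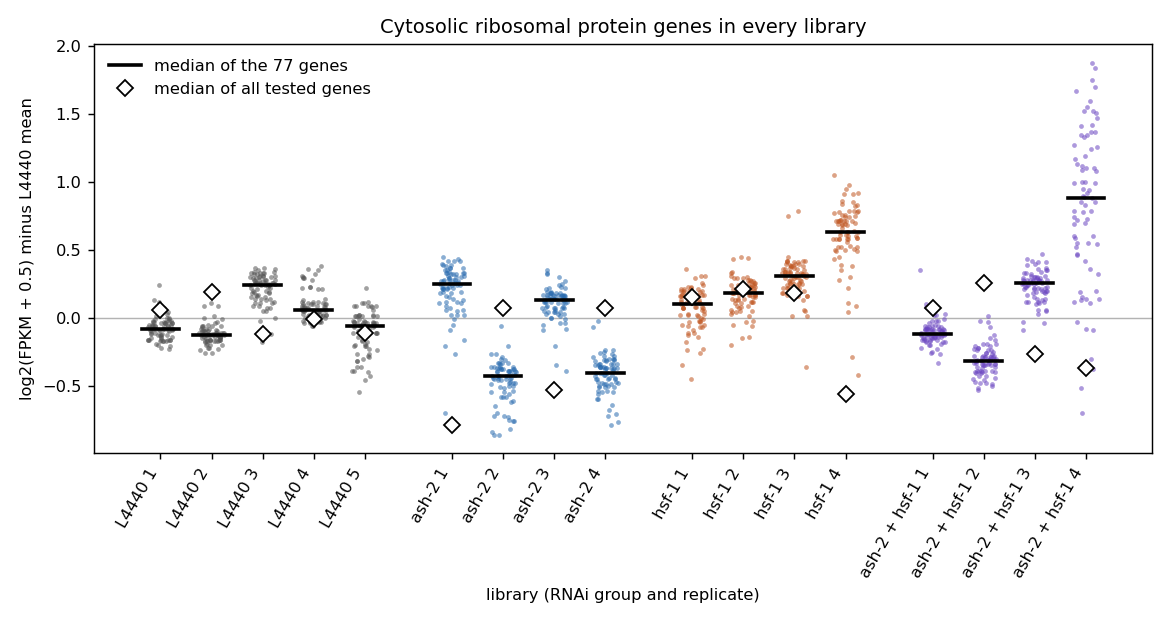
Each point is 1 of the 77 genes in 1 library, as log2(FPKM + 0.5) minus the mean of the 5 L4440 libraries, with the median of the 77 genes as a bar and the median of all tested genes as a diamond. The 77 genes sit close together in most libraries and spread widely in ash-2 + hsf-1 library 4. The bar lies above the diamond in the libraries with few detected genes. It also does so in L4440 libraries 3, 4 and 5, hsf-1 library 3 and ash-2 + hsf-1 library 4.

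The number of detected genes moved with these shifts in part of the libraries. In the 4 libraries with few detected genes the median of all tested genes lay 0.27 to 0.79 below the L4440 mean, and the median of the ribosomal protein genes lay 0.13 to 0.63 above it. In ash-2 libraries 2 and 4, which had 11170 and 11189 detected genes, all tested genes had a median of 0.07 and the ribosomal protein genes −0.43 and −0.41. Elsewhere the number and the shift did not go together. The largest shift, 0.88 in ash-2 + hsf-1 library 4, came with 11556 detected genes, whereas L4440 library 5 with 11459 stood at −0.06. The hsf-1 libraries 1 to 3, with 12804 to 13066 detected genes, stood at 0.10 to 0.31. FPKM is relative to the mapped fragments of a library, so a gain in abundant genes lowers the rest. The part of library composition in the group differences below was not tested, and in whole animals fewer cells of a type and less RNA per cell cannot be told apart.

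With ash-2 RNAi no ribosomal protein gene passed the test. In the fit of all genes (limma on log2(FPKM + 0.5), Benjamini-Hochberg adjusted p under 0.05), 0 of 77 members were called against L4440, where 19.6% of all tested genes were, and 2 members had an unadjusted p under 0.05, against 33.4% of all tested genes. The members' log2 changes had a median of −0.12 (75 of 77 below 0), beside −0.32 for all tested genes; median-of-ratios scaling moved the median of all tested genes by 0.29 to −0.03 and that of the members to 0.22. The smallest adjusted p, 0.0581, belonged to rpl-27, a large subunit protein. It had 1380, 1213, 1498 and 1054 FPKM in ash-2 libraries 1 to 4, against 1461 to 1722 FPKM in L4440, a log2 change of −0.33 ± 0.12 (SE). The ranges overlapped through library 3 alone. Next came rps-20, a protein of the small subunit head, with 1328, 1607, 1650 and 1781 FPKM against 1734 to 2378 FPKM, a log2 change of −0.45 ± 0.16 (SE, adjusted p = 0.0595).

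The outcome for ash-2 RNAi turned on which libraries entered. Without the 4 libraries with few detected genes, which left ash-2 libraries 2 and 4, the median log2 change was −0.41 and 3 of 77 members were called lower, where 11.6% of all tested genes were. When ash-2 + hsf-1 library 4 was left out as well, a choice made after its values were seen, 67 of 77 were called lower at the same median, where 16.3% of all tested genes were. Both fits rest on ash-2 libraries 2 and 4, with the ash-2 gene at 8.68 and 8.54 FPKM. Its level was lower in the left-out ash-2 libraries 1 and 3, at 2.04 and 2.57 FPKM. With the number of detected genes as a covariate, 37 of 77 were called lower (10.8% of all tested genes), at a median of −0.54. That number is counted from the same FPKM values. It was 9401 to 11189 in ash-2 libraries and 11459 to 12664 in L4440 libraries, so covariate and RNAi group cannot be fully told apart here.

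With hsf-1 RNAi nearly all ribosomal protein genes had higher mean levels than in L4440, but a single member passed the test. The log2 changes had a median of 0.31 (75 of 77 above 0), beside −0.03 for all tested genes. In the limma fit 1 of 77 members was called higher and 0 lower, where 7.72% and 2.91% of all tested genes were, 10.6% together. An unadjusted p under 0.05 was found for 8 members, against 21.8% of all tested genes. The called gene was rpl-27, at 1737, 2178, 2142 and 2268 FPKM in hsf-1 libraries 1 to 4 against 1461, 1555, 1722, 1707 and 1564 FPKM in L4440. Each hsf-1 library was above each L4440 library, and the log2 change was 0.37 ± 0.12 (SE, limma adjusted p = 0.0495). This call was lost, at adjusted p from 0.0513 to 0.623, under most of the other settings tried, among them a pseudocount of 0.1 and no filter on low values. It was also lost without L4440 libraries 1, 2, 3, 4 or 5, ash-2 libraries 1 or 2, hsf-1 libraries 2, 3 or 4, or ash-2 + hsf-1 libraries 1 or 2, each left out alone.

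In 8 of 77 members the hsf-1 libraries all lay above the L4440 libraries, about the share among all tested genes (10.5%). These were rps-1, rps-3, rps-8, rps-17, rps-24, rpl-7, rpl-11.2 and rpl-27, and only rpl-27 passed the test. For rps-8 the values were 5059, 4775, 5156 and 5296 FPKM against 3825, 3898, 4351, 3972 and 4400 FPKM, a log2 change of 0.31 ± 0.11 (SE, adjusted p = 0.0965). For rpl-10, whose product joins the large subunit late in its maturation in yeast, the values were 2800, 3391, 3516 and 5064 FPKM against 2434 to 3059 FPKM. The ranges of rpl-10 overlapped, and hsf-1 library 4 stood highest. That library is 1 of the 4 with few detected genes and had the low ash-2 level given above; without the 4 libraries the members' median log2 change was 0.19 and 0 were called, where 17.9% of all tested genes were called higher. When ash-2 + hsf-1 library 4 was left out together with the 4 libraries, 17 were called higher (27.2% of all tested genes) and 1 lower (8.53%).

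With ash-2 + hsf-1 RNAi the members lay below the L4440 mean in libraries 1 and 2 and above it in libraries 3 and 4, by their medians, and no member passed the test against L4440. There 0 of 77 were called in the limma fit, where 9.08% of all tested genes were, and 0 had an unadjusted p under 0.05, against 18.5%. The median log2 change was 0.17, beside −0.07 for all tested genes. It was −0.07 without ash-2 + hsf-1 library 4 and −0.22 without both that library and the 4 libraries with few detected genes. The latter choice left only libraries 1 and 2 of ash-2 + hsf-1 RNAi. Against ash-2 RNAi, 0 of 77 were called, where 15.8% of all tested genes were, and 4 had an unadjusted p under 0.05, against 28.8%. The median there was 0.29, beside 0.27 for all tested genes; removal of each library's trend with transcript length moved the median of all tested genes by −0.29 and that of the members to −0.05. With the number of detected genes as covariate 64 members were called higher, where 11.2% of all tested genes were.

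Against hsf-1 RNAi alone, rpl-27 and rpl-6 were lower with both clones (ash-2 + hsf-1 RNAi). These were 2 of 77 members called lower, with 0 called higher, where 8.42% and 1.28% of all tested genes were, 9.71% together; 5 members had an unadjusted p under 0.05, against 20.9%. In rpl-27 and rps-8 the ranges were separate and lower with both clones, against 8.77% of all tested genes. The rpl-27 level was 1485, 1435, 1737 and 1508 FPKM with both clones against 1737, 2178, 2142 and 2268 FPKM with hsf-1 RNAi, a log2 change of −0.43 ± 0.12 (SE, limma adjusted p = 0.0337). Ranges touched at 1737 FPKM, where the lowest hsf-1 library stood just above the highest with both clones. Its levels with both clones lay within those of L4440 apart from the lowest and the highest library. The rpl-6 level was 3993, 3504, 5186 and 2671 FPKM against 5147, 5308, 5946 and 7087 FPKM, a log2 change of −0.64 ± 0.19 (SE, limma adjusted p = 0.0402). Here ash-2 + hsf-1 library 3 overlapped the hsf-1 range and library 4 was lowest, although most members were highest in that library. Both calls depended on the setting: the adjusted p of rpl-27 reached 0.596 and that of rpl-6 0.449 under median-of-ratios scaling, and 0.202 and 0.181 when only the libraries of these groups were fitted. The rpl-27 call was lost without hsf-1 libraries 2, 3 or 4 or ash-2 + hsf-1 libraries 1 or 2. The rpl-6 call was lost without L4440 libraries 1, 2, 4 or 5, any hsf-1 library, or ash-2 + hsf-1 libraries 1, 2 or 4. Without the 4 libraries with few detected genes and ash-2 + hsf-1 library 4, 47 members were called lower (13.6% of all tested genes), at a median of −0.41. Library 4 was left out after its values were seen. This left ash-2 + hsf-1 libraries 1 and 2, with member medians of −0.12 and −0.32 relative to the L4440 mean. The left-out libraries 3 and 4 stood at 0.26 and 0.88, so the lower calls follow in part from that choice.

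The interaction, which asks whether the effect of both clones differs from the sum of the single effects, was called for 0 of 77 members. In all, 0.107% of tested genes were called, and 0 members had an unadjusted p under 0.05, against 6.37%. The members' median was −0.01, beside 0.23 for all tested genes, and the SE of a member's interaction had a median of 0.32. The lowest value was −0.52 for rpl-6 and the highest 0.42 for rpl-41.2.

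**Figure D3:**
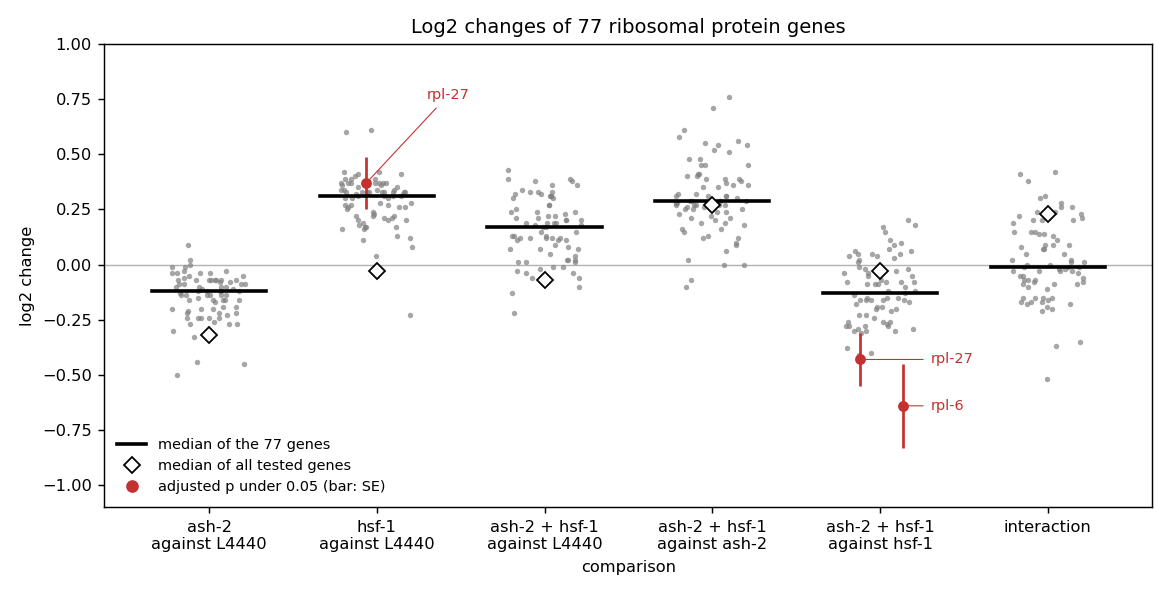
Log2 change of each of the 77 genes in the 6 comparisons, with the members' median as a bar, the median of all tested genes as a diamond and genes with an adjusted p under 0.05 in red with their SE. Only rpl-27 and rpl-6 are red in this fit, the members' median is 0.31 for hsf-1 against L4440 and −0.12 for ash-2 against L4440, and the latter turns to 0.22 under median-of-ratios scaling.

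The balance within some pairs of genes that share a number also differed between L4440 and the single clones. In 4 pairs the names share a number and differ in the suffix (rpl-11.1 and rpl-11.2, rpl-25.1 and rpl-25.2, rpl-24.1 and rpl-24.2, rpl-41.1 and rpl-41.2). The pairs rpl-36 and rpl-36.A, and rpl-7 and rpl-7A, share a number but belong to different protein families. As given above, rpl-24.2 is annotated as a probable ribosome biogenesis protein. A ratio within a library does not depend on a single scaling factor for that library. In other organisms the rpl-11 protein binds the smallest RNA of the large subunit, and the rpl-25 protein lies at the exit of the peptide tunnel.

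The X-linked copies rpl-11.2 and rpl-25.1 took a smaller part of their pair under ash-2 RNAi and a larger part under hsf-1 RNAi. The gene rpl-11.2 lies on chromosome X from 2241738 to 2242618 (minus strand, 4 exons) and rpl-11.1 on chromosome V from 3585312 to 3586064 (minus strand, 3 exons), in WBcel235. The log2 ratio of rpl-11.2 to rpl-11.1 was −0.56, −0.49, −0.49, −0.47 and −0.74 in L4440 libraries 1 to 5. It was −1.07, −1.36, −1.11 and −1.01 in ash-2 libraries 1 to 4, and −0.28, −0.28, 0.15 and 0.18 in hsf-1 libraries 1 to 4. Every ash-2 library was below, and every hsf-1 library above, every L4440 library. The mean ratio was 0.59 lower with ash-2 RNAi and 0.49 higher with hsf-1 RNAi on the log2 scale.

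The second pair gave the same order of groups. The gene rpl-25.1 lies on chromosome X from 4715178 to 4715796 (plus strand, 3 exons) and rpl-25.2 on chromosome I from 8329062 to 8329647 (minus strand, 3 exons). Their log2 ratio was −1.43, −1.27, −1.21, −1.29 and −1.48 in L4440, −1.78, −1.83, −1.67 and −1.74 under ash-2 RNAi, and −1.02, −0.95, −0.56 and −0.84 under hsf-1 RNAi, in library order. Again the ranges of ash-2 and hsf-1 RNAi were separate from that of L4440 on opposite sides. The mean ratio was 0.42 lower with ash-2 RNAi and 0.49 higher with hsf-1 RNAi.

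For each pair, ash-2 and hsf-1 RNAi each gave p = 0.0079 in an exact two-sided permutation test against L4440, the smallest value that the 126 arrangements allow. The adjusted p was 0.0357 over the 18 tests made (6 pairs, 3 groups); these tests were chosen after the values were seen. Without any 1 of the L4440, ash-2 or hsf-1 libraries fewer arrangements are possible, and the adjusted p was 0.0714 to 0.129; without any 1 of the ash-2 + hsf-1 libraries it was 0.0357. The ranges stayed separate in each of these cases. Both RNAi groups are compared with the same L4440 libraries. With ash-2 + hsf-1 RNAi the ratios overlapped L4440. They were −0.63, −0.90, −0.45 and 0.55 for rpl-11.2 to rpl-11.1 (exact permutation p = 0.71, adjusted p = 0.714) and −1.36, −1.46, −1.03 and −0.88 for rpl-25.1 to rpl-25.2 (exact permutation p = 0.29, adjusted p = 0.705), with library 4 highest in each. The remaining 4 pairs overlapped L4440 in every group, at exact permutation p from 0.12 to 0.70 (adjusted p from 0.429 to 0.714). Near-identical copies can share reads, and how the authors' counting divided these is not given in the sources used here, so the ratio of each pair is uncertain to that extent.

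**Figure D4:**
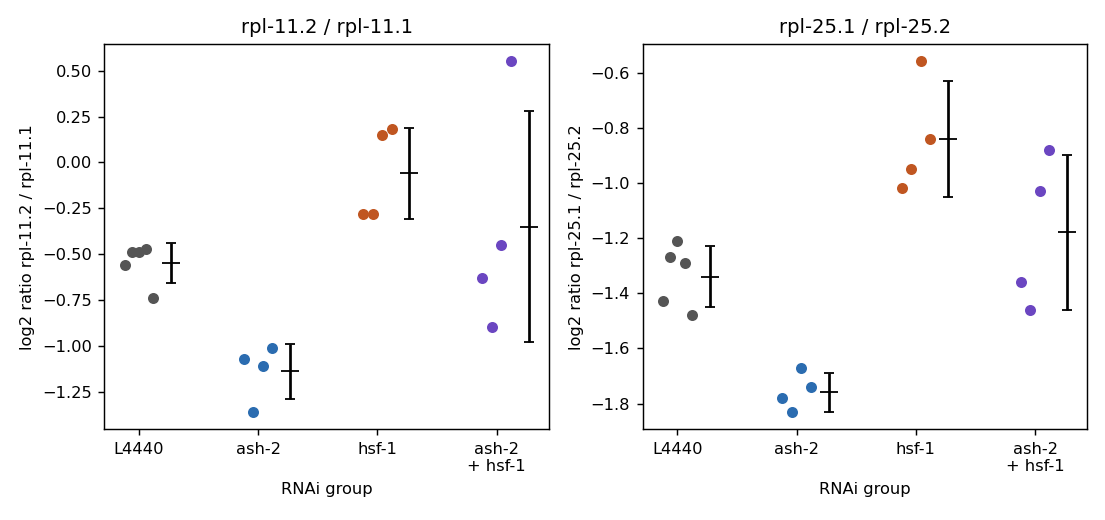
Log2 ratio of the FPKM values of rpl-11.2 to rpl-11.1 and of rpl-25.1 to rpl-25.2 in every library, with group mean and SD beside the points. The 4 ash-2 libraries lie below and the 4 hsf-1 libraries above all 5 L4440 libraries in both plots, and the ash-2 + hsf-1 libraries overlap L4440.

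The means of the X-linked copies differed more between groups than those of their partners. Under ash-2 RNAi rpl-11.2 averaged 753 ± 188 FPKM and under hsf-1 RNAi 1602 ± 340 FPKM, against 1045 ± 127 FPKM in L4440, whereas rpl-11.1 averaged 1648, 1644 and 1527 FPKM. Likewise rpl-25.1 averaged 640 ± 176, 1300 ± 265 and 850 ± 151 FPKM, and rpl-25.2 2149, 2316 and 2129 FPKM. Taken singly, none of the 4 genes passed the test across all genes. The log2 changes of rpl-11.2 were −0.50 ± 0.27 with ash-2 RNAi and 0.60 ± 0.27 with hsf-1 RNAi (SE, limma adjusted p = 0.205 and 0.204). Those of rpl-25.1 were −0.44 ± 0.29 and 0.61 ± 0.29 (limma adjusted p = 0.297 and 0.237). These were the lowest and highest changes among the 77 genes apart from rps-20 at −0.45 with ash-2 RNAi.

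Chromosome X is kept largely silent in the germline. Markers of some tissues differed between the same groups, and no test related them to the ratios. Against L4440, 19.6% of all tested genes were called with ash-2 RNAi and 10.6% with hsf-1 RNAi (7.72% higher, 2.91% lower). Of 14 germline markers 0 were called in either comparison, with median log2 changes of 0.17 for ash-2 and −0.24 for hsf-1 RNAi. Their summed level was 3054 to 3576 FPKM in L4440, 3754 to 4185 FPKM under ash-2 RNAi and 2557 to 2891 FPKM under hsf-1 RNAi, with no marker at 0. These ranges of the sum were separate, although no single marker was called. With ash-2 + hsf-1 RNAi the sum was 2150 to 3981 FPKM, which overlapped each of them. Of 10 hypodermis and cuticle markers, 1 was called higher and 5 lower with ash-2 RNAi, and 5 higher with hsf-1 RNAi; their summed level was 1805 to 2261 FPKM in L4440, 1993 to 2476 FPKM under ash-2 RNAi, which overlapped L4440, and 3595 to 4078 FPKM under hsf-1 RNAi. Of 8 sperm markers, all 8 were called lower with ash-2 RNAi and 0 with hsf-1 RNAi, at median log2 changes of −2.91 and 0.72, and spe-9 was at 0 in at least 1 library. The summed sperm level was 316 to 375 FPKM in L4440, 26.1 to 79.1 FPKM under ash-2 RNAi and 486 to 796 FPKM under hsf-1 RNAi. Of 9 intestine markers, 1 was called lower with ash-2 RNAi, and 1 higher and 5 lower with hsf-1 RNAi, where their summed level was 4731 to 5665 FPKM against 10400 to 12270 FPKM in L4440. Of 10 neuron markers, 1 was called higher with ash-2 RNAi and 4 with hsf-1 RNAi, and of 10 body wall muscle markers 0 were called in either. Tested genes on X other than the members had a median log2 change of −0.26 with ash-2 and 0.12 with hsf-1 RNAi, and the 5 autosomes −0.42 to −0.26 and −0.10 to 0.04. The part of cell composition in the pair ratios was not tested.

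Within a library the members usually kept their proportions, with 1 exception. The SD over the 77 genes of their log2 deviation from L4440 was 0.07 to 0.25 in 16 libraries and 0.58 in ash-2 + hsf-1 library 4. In that library 13 members lay over 0.5 above and 17 over 0.5 below the library's own member median, against at most 5 members in any other library. The small subunit gene rps-16 had 6500 FPKM there, against 1447 to 2130 FPKM in the other ash-2 + hsf-1 libraries, and rps-13 had 6765 FPKM against 1476 to 2273 FPKM. In contrast rpl-6 had 2671 FPKM against 3504 to 5186 FPKM, and rps-20 1512 FPKM against 1946 to 2287 FPKM. Both subunits were split, with 6 rps and 7 rpl genes high and 8 rps and 9 rpl genes low. The 462 other genes at or above 200 FPKM in L4440 were also most spread in that library, with an SD of 0.94 against 0.09 to 0.59 in the others. Over the 77 genes its pattern had a Spearman rho of 0.61 with that of hsf-1 library 4; this is a description across genes, which are not independent replicates.

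Transcript length went with the order of members in some libraries, controls and RNAi groups alike. Over the 77 genes, the deviation in L4440 library 4 fell with transcript length (Spearman rho −0.81, given as a description), so short members stood highest there. In L4440 library 5 it was the reverse (rho 0.59), and the shortest members stood lowest. Under RNAi rho was 0.67 in hsf-1 library 1 and 0.53 in both ash-2 libraries 2 and 4. It was −0.10 in ash-2 + hsf-1 library 4 and −0.37 to 0.36 in the remaining libraries. The most variable members in L4440 were short ones, rps-29 (CV 22.9%, 265 bases), rpl-29 (22.8%, 240 bases) and rpl-43 (22.4%, 276 bases), whereas the median CV of the 77 genes was 12.2%.

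**Figure D5:**
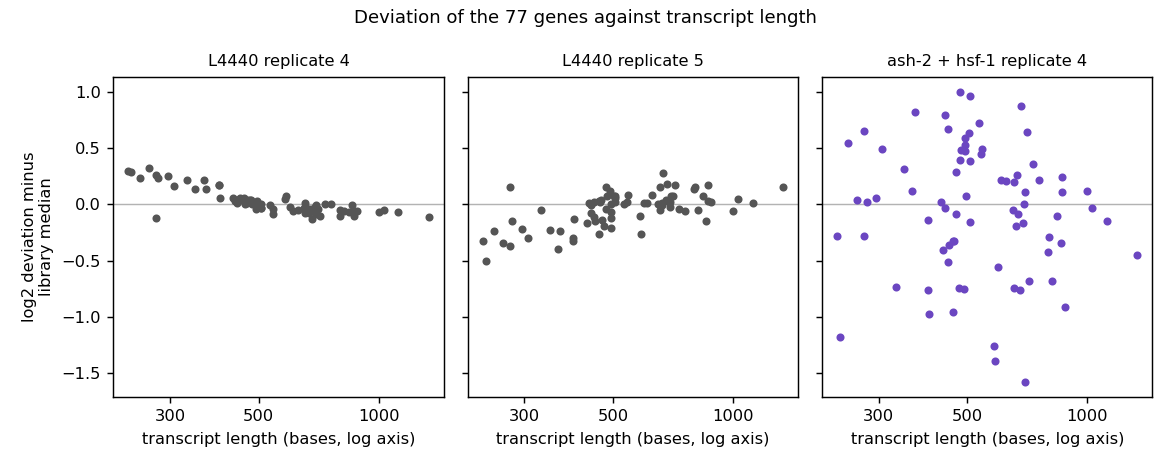
Log2 deviation of each of the 77 genes from L4440, minus the library's member median, against transcript length in bases (log axis) for 3 libraries. Short members are high in L4440 library 4 and low in L4440 library 5, and ash-2 + hsf-1 library 4 shows a wide spread at all lengths.

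Ribosomal proteins that carry other names behaved like the members. The list comprised rla-0, rla-1 and rla-2 of the ribosomal stalk, the ubiquitin fusions ubq-2 and ubl-1, and rack-1, a scaffold on the small subunit. None of the 6 was called in any of the 6 comparisons, and their median log2 changes were −0.09 with ash-2 RNAi and 0.33 with hsf-1 RNAi against L4440. For rack-1 the values were 4310, 2549, 3731 and 2733 FPKM in ash-2 libraries 1 to 4, against 3081 to 3997 FPKM in L4440, with libraries 1 and 3 high and 2 and 4 low as for the members. Mitochondrial ribosomal proteins, which build the separate ribosome of that organelle, were also called in none of the 6 comparisons (71 tested). Their medians were −0.07 with ash-2 RNAi and −0.15 with hsf-1 RNAi. Of all tested genes, 19.6% were called with ash-2 RNAi and 10.6% with hsf-1 RNAi against L4440.

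Few other genes of the translation pathway passed the test. Of all tested genes, 19.6% were called with ash-2 RNAi and 10.6% with hsf-1 RNAi against L4440. With both clones 9.08% were called against L4440, 15.8% against ash-2 RNAi and 9.71% against hsf-1 RNAi. Of 12 elongation and release factors, 1 was called higher with hsf-1 RNAi, where 7.72% of all tested genes were. This was eef-1A.2, an elongation factor that brings charged transfer RNA to the ribosome, at 800 ± 140 FPKM against 556 ± 10.7 FPKM in L4440, a log2 change of 0.51 ± 0.12 (SE, limma adjusted p = 0.0109). It was lower with both clones than with hsf-1 RNAi alone, at 546 ± 64.7 FPKM (limma adjusted p = 0.0113), as rpl-27 was. Of 33 initiation factors, 0 were called with either single clone; ife-2, a cap-binding protein, was called higher with both clones against L4440, pab-2 higher with both clones against ash-2 RNAi, and pab-1, which binds poly(A) tails, lower with both clones against hsf-1 RNAi. Of 35 genes for ribosome assembly and RNA polymerase I, ruvb-1 was called higher and rpoa-12, an RNA polymerase I subunit, lower with ash-2 RNAi, and 0 were called with hsf-1 RNAi. With both clones ruvb-1 was called lower against ash-2 RNAi, at a log2 change of −0.37 ± 0.12 (SE, limma adjusted p = 0.041). Of 13 genes of the target of rapamycin pathway, which controls ribosome production by nutrients, 0 were called in any comparison.

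In the authors' deposited table for each of the 3 comparisons they deposited, 0 of the 77 members had a q-value under 0.05. The share of all tested genes under that q-value in the authors' deposited table was 36.1% for ash-2 against L4440, 21.1% for hsf-1 against L4440 and 16.0% for ash-2 + hsf-1 against ash-2. The members' median log2 fold changes in the authors' deposited table were −0.10, 0.33 and 0.34 in that order.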

How the data were processed

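The authors deposited 1 table of FPKM values per gene and library; cutadapt, HISAT2, StringTie, DESeq2 and build WBcel235 are named per the submitters' processing notes, without versions. Read counts were not used here. The log2 fold changes and q-values of 3 comparisons were computed by the authors and deposited in separate tables, and serve only as description.

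The 77 members, the gene lists and the comparisons were chosen with earlier results of these data known. Values were taken as log2(FPKM + 0.5), a scale that understates changes of low genes. limma 3.58.1 fitted all 17 libraries in 1 model (R 4.3.3, trend and robust settings), after a filter of 1 FPKM in 4 libraries, and p-values were adjusted by Benjamini-Hochberg over 13084 genes. The fit was tested on simulated data. Other steps used pandas 2.3.3 and numpy 2.4.6 under Python 3.11.15. Library numbers are those of the titles; for the last library of hsf-1 RNAi and of ash-2 + hsf-1 RNAi another label field gives a different number. Gene models came from the Ensembl annotation of WBcel235, which covered all 77 members and 99.9% of tested genes. Fragment depth is an estimate from FPKM steps within a fixed window, so similar depths were partly set by the method. Pair ratios were compared by exact permutation tests.

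Named members are those called, the 4 highest and 4 lowest in L4440, the 3 most variable, the pairs sharing a number, and the 3 highest and lowest changes per comparison, from which the text selects; rps-1, rps-3, rps-8, rps-17, rps-24 and rack-1 were named after their values were seen. Alternatives covered scaling, pseudocount, filter, covariate, length trend, replicate block and left-out libraries.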

Additional observations from a re-analysis of the deposited data

Results flagged for a closer look

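In groups of 4 or 5 libraries, a library is named here when its gap to the nearest other library, divided by the range of the group, passes Dixon's 95% critical value. The measure was applied to 136 groups (the named members in the 4 RNAi groups and the library summaries); 6 passed, and chance alone passes about 1 group in 20. Most involved ash-2 + hsf-1 library 4 or hsf-1 library 4, and they come from the same libraries, so they are not independent.

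In ash-2 + hsf-1 library 4 rps-13 stood at 6765 FPKM and rps-16 at 6500 FPKM, each far above the other 3 libraries of the group. The SD over the 77 members of their deviation from L4440 was 0.58 in that library. In hsf-1 library 4 rps-13 stood at 3719 FPKM and rpl-25.2 at 2854 FPKM, above the other 3 libraries. In L4440 library 3, the L4440 library with the highest share of ribosomal protein FPKM, rpl-6 stood at 5304 FPKM.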

How the results depend on the processing

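No ribosomal protein gene passed the test in opposite directions, but the number called and, in part, the direction of the median depended on scaling, covariates and libraries; the cause was not tested. Percentages are of all tested genes, same direction. For ash-2 against L4440 (0 of 77 called) it was 7 lower with quantile normalization (10.1%), 37 lower with the number of detected genes as covariate (10.8%), 3 lower without the 4 libraries with few detected genes (11.6%), 1 higher with the length trend removed (14.4%), 3 lower with only the compared groups fitted (20.3%), and 67 lower without the 4 libraries and ash-2 + hsf-1 library 4 (16.3%); the median of −0.12 became 0.22 with median-of-ratios scaling, −0.54 with the covariate and 0.26 with the length trend removed. For hsf-1 against L4440 (1 called) it was 3 higher with quantile normalization (8.89%), 32 higher with the covariate (1837 of 13084 genes, beside 25.6% lower), 6 higher with only the compared groups (9.03%) and 18 without the 4 libraries and ash-2 + hsf-1 library 4 (17 higher, 27.2%; 1 lower, 8.53%). It was 0 with median-of-ratios scaling, a pseudocount of 0.1, no filter, a filter of 5 FPKM, the 4 libraries left out, the length trend removed, and eBayes without trend and robust settings. For ash-2 + hsf-1 against L4440 (0 called) it was 1 lower with quantile normalization (7.51%), and the median of 0.17 became −0.22 without the 4 libraries and ash-2 + hsf-1 library 4. For ash-2 + hsf-1 against ash-2 (0 called) it was 5 higher with quantile normalization (7.36%), 64 higher with the covariate (11.2%), 2 higher without the 4 libraries (11.2%), 1 lower with the length trend removed (9.26%) and 2 higher without the 4 libraries and ash-2 + hsf-1 library 4 (14.1%); the median of 0.29 became 0.64 with the covariate and −0.05 with the length trend removed. For ash-2 + hsf-1 against hsf-1 (2 called) all calls were lower: 4 with quantile normalization (8.90%), 20 with the covariate (12.9%), 4 without the 4 libraries (14.8%) and 47 when ash-2 + hsf-1 library 4 was left out too (13.6%). It was 1 with no filter (4.56%) or a filter of 5 FPKM (6.17%), and 0 with median-of-ratios scaling, the length trend removed, eBayes without trend and robust settings, or only the compared groups. The interaction median of −0.01 became 0.38 without the 4 libraries. Leaving out the 4 libraries and ash-2 + hsf-1 library 4 kept only ash-2 libraries 2 and 4 and ash-2 + hsf-1 libraries 1 and 2.

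With each library left out in turn, the number called ranged from 0 to 2 for ash-2 against L4440 (2 without ash-2 + hsf-1 library 4, and 1 without L4440 library 5, ash-2 library 3 or hsf-1 libraries 1 or 4), 0 to 1 for hsf-1 against L4440, 0 to 2 for ash-2 + hsf-1 against ash-2 (2 without ash-2 + hsf-1 library 2), 0 to 2 for ash-2 + hsf-1 against hsf-1, and was 0 throughout for the others. The medians in that order ranged from −0.23 to −0.02, 0.19 to 0.37, 0.05 to 0.45 and −0.38 to 0.04; they ranged from −0.07 to 0.33 for ash-2 + hsf-1 against L4440 and −0.23 to 0.16 for the interaction.

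In each of 19 left-out sets, chosen after seeing the data, the ash-2 and hsf-1 ranges of both pairs were separate from L4440, with differences of −0.64 to −0.52 and 0.41 to 0.56 for rpl-11.2 to rpl-11.1 and −0.46 to −0.39 and 0.40 to 0.55 for rpl-25.1 to rpl-25.2. With fewer arrangements, the adjusted p was 0.0714 to 0.171 in sets lacking an L4440, ash-2 or hsf-1 library. Quantile normalization gave −0.61 and 0.54 for the first pair and −0.52 and 0.70 for the second, and removal of the length trend −0.61, 0.50, −0.42 and 0.49, with separate ranges and an adjusted p of 0.0357 each; both were also added later.

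With the replicate number of the titles as a replicate block, 1 member was called lower for ash-2 against L4440 (16.1%) and 0 for hsf-1 against L4440 (5.69% higher, 2.51% lower). With the numbers of the other label field it was 3 lower (25.4%), 0 (9.39% higher, 3.50% lower) and, for ash-2 + hsf-1 against ash-2, 1 higher (18.1%). Same-numbered libraries share only a number; deviations from the group means correlated from −0.689 to 0.686.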
